A study of Homo sapiens with 4 samples.

Results

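The genes described here are 45 genes of mitosis: cyclins and mitotic kinases, spindle checkpoint and kinetochore proteins, kinesins, spindle assembly and cytokinesis factors, and chromosome structure proteins. They were listed by name, and each was read from its brightest probe set that carries a single gene symbol, by mean log2 signal over all 4 arrays. Of the 45 genes, 43 passed a filter on low signals that 13180 of 19775 genes on the array passed. The 2 that did not were CENPE and KIF18A. The cells were HCCLM3, a human hepatocellular carcinoma line, sorted with magnetic beads for EpCAM, an epithelial surface protein. EpCAM-negative cells were transfected with a miR-429 mimic at 100 nM or with a negative-control (NC) mimic at 100 nM. EpCAM-positive cells were given antagomir-429, an inhibitor of the microRNA, at 40 µM or an NC antagomir at 40 µM, added to the medium without the transfection reagent. All 4 groups were treated for 4 days and each had 1 Affymetrix U133 Plus 2.0 array, so no difference below has a replicate behind it and no test was possible. The number of arrays limits the precision.

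Mitosis is started by CDK1 bound to cyclin A or cyclin B and ended when the anaphase-promoting complex (APC/C), an E3 ubiquitin ligase, marks cyclin B and securin for destruction. In between, kinetochores attach chromosomes to microtubules of a spindle that kinesins build and move, and the spindle checkpoint holds the APC/C back until the attachments are made. Genes of this group are transcribed together late in the cell cycle and kept off in resting cells, and their mRNA levels in bulk tumour samples are commonly used as a readout of proliferation. In a bulk sample, fewer dividing cells and less of each transcript per dividing cell cannot be told apart.

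The promoters of late cell-cycle genes commonly hold a CHR (cell cycle genes homology region), bound by the MuvB complex, and CCAAT boxes, bound by NF-Y. A RefSeq promoter of 300 bases, 250 before to 50 after the gene start, was matched for 40 of the 45 genes. The letters TTTGAA or TTTAAA on either strand, taken as the CHR, were in 34 of these 40 promoters (85%), against 24.3% of 27305 promoters of the same length, 1 for each gene symbol. CCAAT on either strand was in 28 (70%), against 35.7% of all promoters, and 2 or more copies were in 17 (42.5%), against 11.3%. Both motifs together were in 24 (60%), against 9.49%. The CHR letters lay mostly near the start: 32 of 40 promoters (80%) had a match that began between 100 bases before and 50 after it, against 11.3% of all promoters. TTTAAA reads the same on both strands and was counted once, a CHR and a CCAAT match may share a letter, and a match describes the window only. Neither motif was in the windows read for the phosphatase genes CDC25B and CDC25C. Only the first listed promoter of each symbol was read, so a motif at another start of the gene would be missed.

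**Figure D1:**
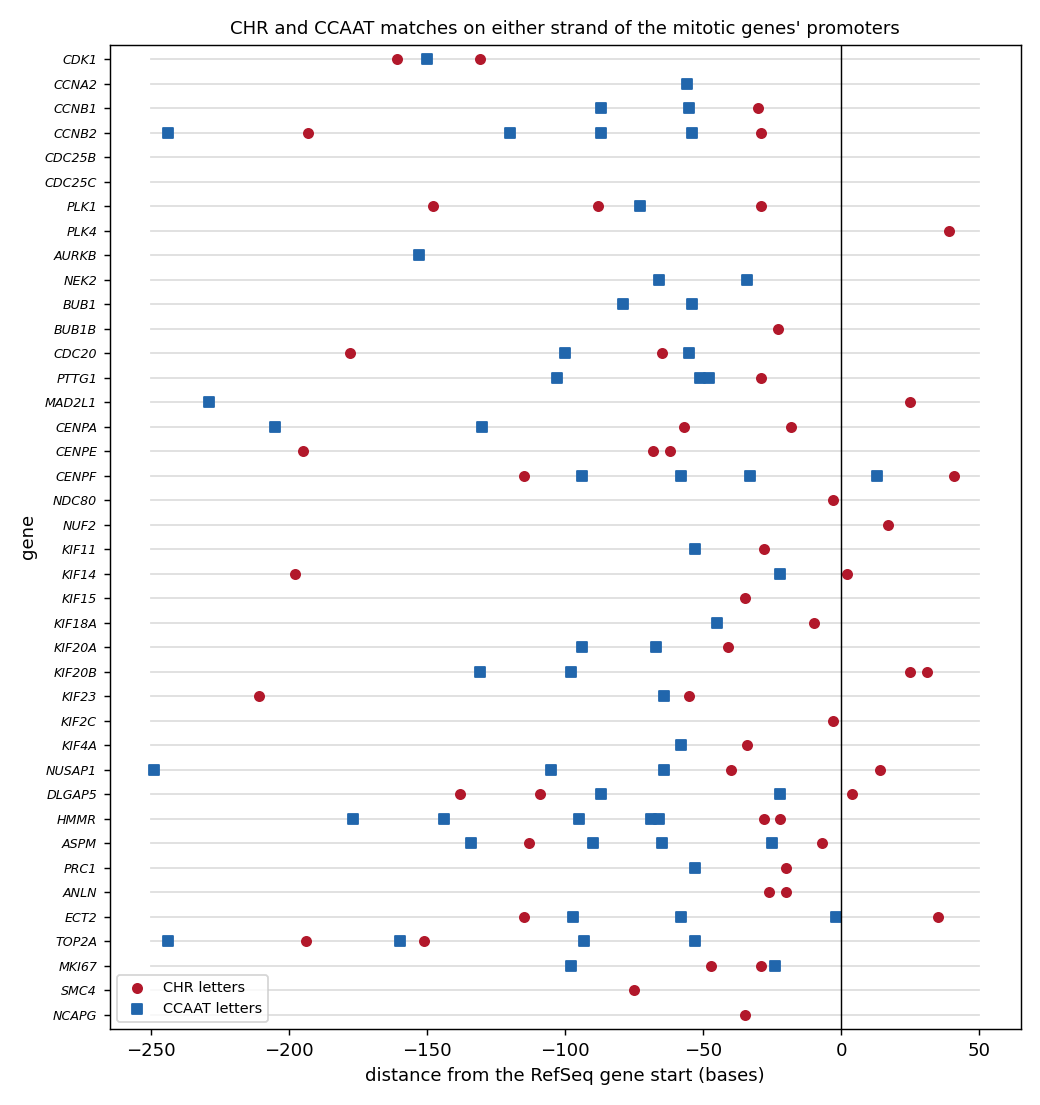
Positions of CHR letters (red circles) and CCAAT letters (blue squares) on either strand of the promoters of 40 mitotic genes; the x axis is the distance in bases of the leftmost base of each match from the RefSeq gene start, and each grey line is 1 promoter of 300 bases. CHR matches are in 34 promoters and crowd towards the start.

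Promoters of 4 genes that hold both motifs are shown as examples, and their array patterns are given below. Whether the motifs bear on the patterns was not tested. They are RefSeq sequences of build GRCh38.p14, 5′ to 3′ on the gene's strand, with CHR and CCAAT letters of either strand in capitals. CDK1 (chr10:60778081-60778380, plus strand) and HMMR (chr5:163460382-163460681, plus strand) were highest on the NC mimic array. TOP2A (chr17:40417847-40418146, minus strand) was lowest on the NC antagomir array, and CCNB1 (chr5:69166900-69167199, plus strand) was highest on the miR-429 mimic array.
CDK1: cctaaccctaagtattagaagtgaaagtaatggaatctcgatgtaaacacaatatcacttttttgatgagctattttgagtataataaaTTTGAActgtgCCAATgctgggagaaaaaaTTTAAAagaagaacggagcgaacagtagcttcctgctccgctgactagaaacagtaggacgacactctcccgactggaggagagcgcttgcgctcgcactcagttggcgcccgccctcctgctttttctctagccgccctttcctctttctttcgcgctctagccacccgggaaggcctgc
HMMR: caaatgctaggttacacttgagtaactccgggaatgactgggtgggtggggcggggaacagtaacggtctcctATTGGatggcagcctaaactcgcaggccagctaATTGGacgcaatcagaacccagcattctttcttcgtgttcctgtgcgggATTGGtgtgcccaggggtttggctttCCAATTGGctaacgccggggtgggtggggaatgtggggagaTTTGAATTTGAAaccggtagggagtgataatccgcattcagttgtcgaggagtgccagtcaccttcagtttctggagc
TOP2A: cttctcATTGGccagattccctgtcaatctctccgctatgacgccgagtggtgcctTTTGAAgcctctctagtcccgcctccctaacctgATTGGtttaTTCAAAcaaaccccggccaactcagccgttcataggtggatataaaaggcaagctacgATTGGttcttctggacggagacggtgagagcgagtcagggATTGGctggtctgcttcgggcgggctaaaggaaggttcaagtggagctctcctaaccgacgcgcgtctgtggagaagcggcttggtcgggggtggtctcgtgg
CCNB1: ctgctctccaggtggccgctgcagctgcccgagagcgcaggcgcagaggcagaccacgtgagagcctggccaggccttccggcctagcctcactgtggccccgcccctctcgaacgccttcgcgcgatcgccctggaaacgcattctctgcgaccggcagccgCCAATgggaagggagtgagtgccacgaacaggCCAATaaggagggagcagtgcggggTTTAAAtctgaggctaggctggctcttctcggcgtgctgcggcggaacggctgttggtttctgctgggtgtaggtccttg
The HMMR window held 2 CHR matches side by side and 5 CCAAT matches. CCNB1 had 1 CHR and 2 CCAAT matches, TOP2A had 2 and 4, and CDK1 had 2 and 1. The microRNA that the mimic supplies and the antagomir binds is shown as mature RefSeq sequence with its seed, bases 2 to 8, in capitals; its gene lies at chr1:1169055-1169076 on the plus strand of GRCh38.p14.
hsa-miR-429: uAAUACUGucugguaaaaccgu
hsa-miR-200b-3p: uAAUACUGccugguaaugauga
hsa-miR-200c-3p: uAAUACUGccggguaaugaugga
The last 2, of the same family, are shown because they share that seed.

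All arrays had been scaled by the authors to a mean signal of 500.1 after trimming, and between 54.2% and 55.9% of probe sets on each were at or above the floor. The floor is the median probe set by mean log2 signal, a signal of 52.9, and was used as the filter. A ratio against an array under it is given as a bound ("at least"). The labelled line was checked with 7 epithelial and liver cancer markers, of which 4 passed the filter. KRT8 and KRT18 were bright, while KRT19 and ALB were under the floor on every array. EPCAM reached 3838 with the mimic against 1106 with the NC mimic, and 913 with the antagomir against 1235 with the NC antagomir, so the EpCAM-positive and EpCAM-negative controls differed in it by a log2 ratio of 0.16. Of 9 measured markers of leukocytes, endothelium and fibroblasts, 5 passed the filter. On the miR-429 mimic array 3 were under the floor and 4 on each other array, PTPRC and CD14 on all. CD3E, also a leukocyte marker, was above the floor on all 4, as were PECAM1, COL1A1 and DCN. Its signals were 136 with the mimic, 54.8 with the NC mimic, 60.7 with the antagomir and 88.25 with the NC antagomir. Summed over the 9 markers, the signal was 8261 with the miR-429 mimic, 7921 with the NC mimic, 8226 with the antagomir and 11175 in its control. Most of it came from the collagen COL1A1. RNA quality was read from the actin control, whose 3′ to 5′ ratio was 2.63 on the miR-429 mimic array and 3.41 on the NC mimic array, then 3.07 for the antagomir and 3.12 for its control. Its part in the results was not tested.

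With the miR-429 mimic the mitotic genes did not move one way. Of the 43 that passed the filter, 5 were higher by 1.5-fold or more, against 14.5% of all expressed genes, and 6 were lower by as much, against 10.9%. Among brighter genes (mean signal of 265.6 or more), 5 of 31 mitotic genes (16.1%) were higher, against 9.91% of 8130, and 5 (16.1%) were lower, against 5.40%. The higher ones were BUB1, KIF4A, TPX2, PRC1 and CCNB1, and the lower ones TTK, HMMR, CDK1, NDC80, NUF2 and MAD2L1. Their median log2 ratio was 0.08, with 24 genes above 0 (55.8%, against 49.9% of all expressed genes) and 19 below, beside a median of -0.0016 over all expressed genes. TTK was the only one past 2-fold (-1.10), where 9.01% of all expressed genes were past 2-fold in either direction. Of the 43 mitotic genes, 31 lay among the brighter genes, as did 8130 of the 13180 expressed genes. Brighter genes scatter less, and how far this bears on the mitotic counts past 2-fold was not tested. The robust SD of the log2 ratio was 0.82 in the dimmest 3295 expressed genes and 0.36 in the brightest 3295 with the mimic, 0.79 and 0.15 with the antagomir, and 0.82 and 0.24 between the controls. With each array centred on its median, 2 mitotic genes were higher (against 11.1%) and 7 lower (against 15.3%) with the mimic. Of all 1.5-fold calls, 42% were then higher in place of 57%. With the NC antagomir array as control instead, 12 were higher, against 13.7% of all expressed genes, and 2 lower, against 8.68%. With that control CDK1, HMMR and NUF2 were above 0.

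With antagomir-429 most mitotic genes lay slightly above the control. The median log2 ratio was 0.15, beside 0.01 over all expressed genes, and 26 of 43 were above 0 (60.5%), against 51.0%. The genes higher by 1.5-fold or more were 4 (KIF15, KIF14, TOP2A and KIF11), against 9.35% of all expressed genes, and KIF20B and MKI67 were lower by as much, against 8.29%. Past 2-fold in either direction were 3, the dim kinesins KIF14, KIF15 and KIF20B, against 7.25%, and KIF20B alone with signals under the floor set to the floor, against 4.63%. Among the brighter genes 1 of 31 mitotic genes (3.23%) was higher by 1.5-fold or more, TOP2A (log2 ratio 0.85), against 2.5% of 8130. Of the same 31, 0 were lower by as much, against 1.96%. With the NC mimic array as control instead, 2 mitotic genes were higher, against 12.3% of all expressed genes, and 8 lower, against 12.1%. The median was then -0.0475, and TOP2A (-0.47) and KIF11 (-0.362) were below 0.

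Between the controls more mitotic genes were lower than higher. In EpCAM-positive cells with the NC antagomir, 12 of 43 mitotic genes (27.9%) were lower by 1.5-fold or more than in EpCAM-negative cells with the NC mimic, against 12% of all expressed genes, and 2 were higher (MKI67 and KIF20B), against 10.3%. The 12 were TOP2A, HMMR, ANLN, KIF11, NUF2, ECT2, CDK1, KIF14, KIF15, TTK, NDC80 and PLK1. Of these, KIF14 and KIF15 were under the floor in the NC antagomir array, and with such signals set to the floor 11 were lower, without KIF15, against 11.1% of all expressed genes. The median log2 ratio was -0.20, beside -0.02 over all expressed genes, and 12 of 43 were above 0 (27.9%), against 47.8%. Past 2-fold were 7, against 8.32%. Among the brighter genes 8 of 31 mitotic genes (25.8%) were lower by 1.5-fold or more, against 4.71% of 8130, and 0 were higher. These arrays differ in the sort, in the control oligonucleotide, in its dose and in its delivery, which cannot be told apart, and each of them is also the control of a treatment comparison.

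**Figure D2:**
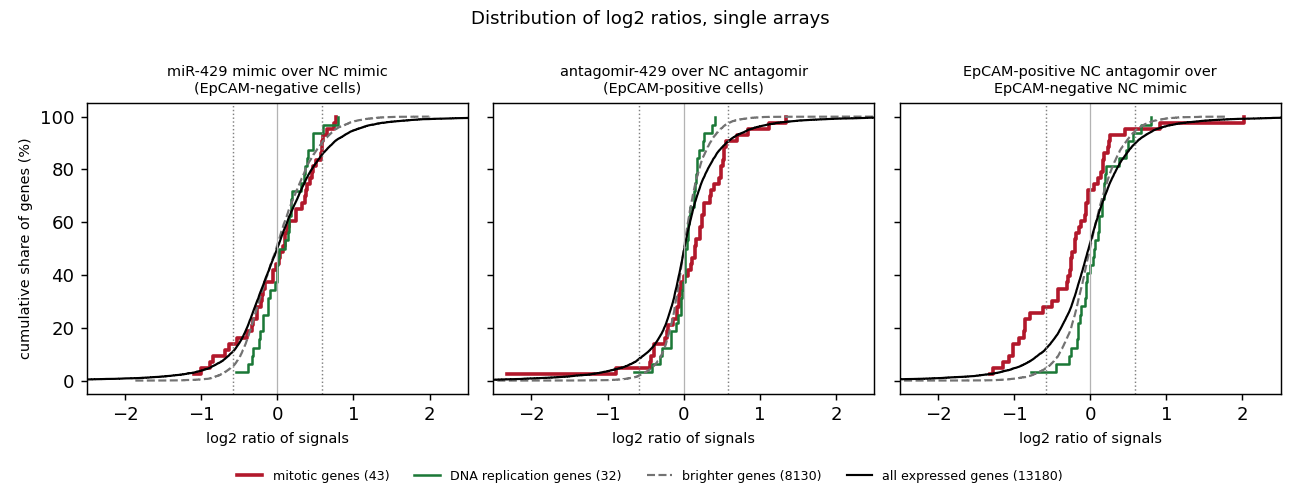
Cumulative share of genes (y axis, percent) at or below each log2 ratio (x axis) in the 3 comparisons, for 43 mitotic genes, 32 DNA replication genes, 8130 brighter genes and all 13180 expressed genes; dotted lines mark 1.5-fold. Around the median the mitotic curve lies left of the others in the comparison of the controls (-0.20) and right of them with antagomir-429 (0.15).

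The starters of mitosis divided between CDK1 and its cyclins. CDK1, the kinase that drives entry, had signals of 2863 with the mimic against 5262 with the NC mimic, and 3169 with the antagomir against 2745 with the NC antagomir. The NC mimic array stood alone as high, and the other 3 lay within a narrow range. The log2 ratio was -0.88 with the mimic, 0.21 with the antagomir and -0.94 between the controls, and all 4 CDK1 probe sets past the filter were negative with the mimic (from -0.88 to -0.42) and between the controls, where 3 lay from -1.03 to -0.94 and the fourth was under the floor in the NC antagomir array. CCNB1, which encodes cyclin B1, its main mitotic partner, had signals of 9245 with the mimic against 6129 with the NC mimic, and 5956 with the antagomir against 5356 with the NC antagomir. Here the miR-429 mimic array was the high one, at a log2 ratio of 0.59 by the brightest probe set and 0.56 by the other. CDC25C, a phosphatase that activates CDK1, had 1199.5 with the mimic against 799.8 with the NC mimic, and 715 with the antagomir against 940.2 with the NC antagomir. Its log2 ratio with the mimic rounds to 0.58, just short of 1.5-fold, and its other probe set past the filter gave 0.94. By their brightest probe sets CCNA2 (cyclin A2) and CCNB2 (cyclin B2) were also above the control with the mimic, at 0.46 and 0.33. The second CCNA2 probe set past the filter gave 0.63, and the second CCNB2 one, much dimmer, gave -0.05. CDC25B was below the control with the mimic, at -0.32. With the antagomir the 6 genes of this role lay between -0.40 and 0.27.

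The Polo, Aurora and NEK kinases stayed within 1.5-fold in both treatment comparisons. AURKA, which matures centrosomes and the spindle poles, had signals of 4630.0 with the mimic against 3341 with the NC mimic, and 3979 with the antagomir against 2823 with the NC antagomir. It was above the control with both treatments (log2 ratios 0.47 and 0.49), and its second probe set past the filter gave 0.43 and 0.37. NEK2, a centrosome-splitting kinase, had 1359 with the mimic against 955 with the NC mimic, and 1113 with the antagomir against 771 with the NC antagomir. That is the same order of the arrays, with log2 ratios of 0.51 and 0.53, but its second probe set past the filter gave 0.49 and 0.04. PLK1, the Polo kinase of entry, spindle assembly and cytokinesis, had 364 with the mimic against 457 with the NC mimic, and 427 with the antagomir against 298 with the NC antagomir. It was the only kinase of this role past 1.5-fold between the controls (-0.62). AURKB, the kinase of the chromosomal passenger complex, had 4155 with the mimic against 3875 with the NC mimic, and 3504 with the antagomir against 3507 with the NC antagomir. By that probe set the arrays hardly differed, while a much dimmer one gave -1.70 with the mimic and -0.88 with the antagomir. PLK4, which starts centriole duplication, was close to the floor on every array, with signals of 68.2 with the mimic against 57.2 with the NC mimic, and 75.7 with the antagomir against 64.4 with the NC antagomir.

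The spindle checkpoint genes held both the highest and the lowest mitotic log2 ratio with the mimic. TTK, the kinase (MPS1) at the top of the checkpoint, had signals of 195 with the mimic against 418 with the NC mimic, and 217 with the antagomir against 232 with the NC antagomir. As with CDK1, the NC mimic array stood alone as high, with log2 ratios of -1.10 with the mimic and -0.85 between the controls. BUB1, a checkpoint kinase of the kinetochore, had 1109 with the mimic against 648 with the NC mimic, and 809 with the antagomir against 637 with the NC antagomir. Both controls were alike (-0.02), and the miR-429 mimic array was highest (0.78). BUB1B (BUBR1), a checkpoint inhibitor of the APC/C, had log2 ratios of 0.36 with the mimic, -0.08 with the antagomir and -0.06 between the controls. MAD2L1, which encodes the MAD2 inhibitor of the APC/C, had 2711 with the mimic against 4195 with the NC mimic, and 2503 with the antagomir against 2971 with the NC antagomir. It was lower with the mimic by its brightest probe set (-0.63), and its other probe set past the filter gave -0.20. CDC20, the APC/C activator that MAD2 restrains, was furthest from 0 with the mimic, at a log2 ratio of -0.20. PTTG1 (securin), which blocks separase, had 17846 with the mimic against 18129 with the NC mimic, and 20964 with the antagomir against 17782 with the NC antagomir. UBE2C, a ubiquitin-conjugating enzyme of the APC/C, had log2 ratios of 0.13 with the mimic, 0.22 with the antagomir and -0.27 between the controls. Between the controls all 7 genes of this role were below 0, but TTK alone was past 1.5-fold.

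At the kinetochore, the NDC80 complex and the centromere proteins differed. NDC80 and NUF2 encode partners of 1 dimer of the microtubule-binding NDC80 complex. NDC80 had signals of 306 with the mimic against 549 with the NC mimic, and 352 with the antagomir against 318 with the NC antagomir. NUF2 had 339.8 with the mimic against 545 with the NC mimic, and 231 with the antagomir against 269 with the NC antagomir. Both were highest with the NC mimic, at log2 ratios of -0.84 and -0.68 with the mimic and -0.79 and -1.02 between the controls. CENPA, the histone H3 variant that marks centromeres, had 2963 with the mimic against 2884 with the NC mimic, and 2446 with the antagomir against 2348 with the NC antagomir. Its log2 ratio furthest from 0 was -0.30, between the controls. CENPF, a large kinetochore protein, had 211 with the mimic against 254 with the NC mimic, and 230.0 with the antagomir against 303 with the NC antagomir. It was lower with the mimic and with the antagomir (-0.27 and -0.40), and its other probe set past the filter gave -0.17 and -0.05. CENPE, a kinetochore kinesin, was under the floor on all 4 arrays and no ratio of it is given.

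The kinesins were above the control with the mimic in 7 of 8 genes that passed the filter, where 49.9% of all expressed genes were, with a median log2 ratio of 0.38. With the antagomir they were above it in 6 of 8, against 51.0%, with a median of 0.45. KIF4A, a chromokinesin of the spindle midzone, had signals of 1326 with the mimic against 789 with the NC mimic, and 968 with the antagomir against 752 with the NC antagomir. It was past 1.5-fold with the mimic (0.75). KIF20A, which carries the passenger complex to the midzone, had 3912 with the mimic against 3009.6 with the NC mimic, and 3804 with the antagomir against 2633 with the NC antagomir, so both treated arrays were above both controls. KIF2C, a microtubule depolymerase at centromeres, had 5043 with the mimic against 3864 with the NC mimic, and 3767 with the antagomir against 3368 with the NC antagomir. Its second probe set past the filter gave 0.71 with the mimic and -0.10 with the antagomir. KIF23, the centralspindlin kinesin, had 248 with the mimic against 184 with the NC mimic, and 185 with the antagomir against 252 with the NC antagomir. Both its probe sets past the filter were above the control with the mimic (0.43 and 0.13) and below it with the antagomir (-0.45 and -0.47). The bipolar-spindle motor KIF11 (Eg5) had 190.0 with the mimic against 177 with the NC mimic, and 137 with the antagomir against 84.4 with the NC antagomir. The NC antagomir array was low and the other 3 were nearer each other, which gave log2 ratios of 0.70 with the antagomir and -1.07 between the controls. KIF15, which can share the work of KIF11, had 68.8 with the mimic against 71.2 with the NC mimic, and 99.3 with the antagomir against 39.3 with the NC antagomir. Its NC antagomir signal was under the floor, so it was at least 1.88-fold higher with antagomir-429 and at least 1.35-fold lower in that control than with the NC mimic.

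The values of KIF14, KIF18A and KIF20B rest on dim or discordant probe sets. KIF14, a cytokinesis motor, had signals of 97.3 with the mimic against 87.3 with the NC mimic, and 104 with the antagomir against 47.6 with the NC antagomir by its brightest probe set. With the NC antagomir under the floor, it was at least 1.96-fold higher with the antagomir and at least 1.65-fold lower in that control than with the NC mimic. Its other probe set past the filter gave 73.8 with the antagomir against 105.9 with the NC antagomir, which is opposite in direction to the first (log2 ratio -0.52). KIF20B, a cytokinesis kinesin, had 59.2 with the mimic against 39.7 with the NC mimic, and 32 with the antagomir against 161 with the NC antagomir. Only the NC antagomir array was clearly above the floor, at least 3.04-fold above antagomir-429 and at least 3.04-fold above the NC mimic, and the other 2 KIF20B probe sets did not pass the filter. KIF18A, which dampens chromosome oscillation, had 107 with the mimic against 88.2 with the NC mimic, and 4.29 with the antagomir against 91.7 with the NC antagomir, a signal under the floor on the antagomir-429 array that was at least 1.73-fold lower than its control.

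Spindle assembly factors were mixed. TPX2, which activates Aurora A on the spindle, had signals of 3829.8 with the mimic against 2437 with the NC mimic, and 3822 with the antagomir against 2900.0 with the NC antagomir. Both treated arrays were above their controls, with log2 ratios of 0.65 and 0.40. HMMR, a hyaluronan receptor that also acts at spindle poles, had 349.7 with the mimic against 698 with the NC mimic, and 213 with the antagomir against 287 with the NC antagomir. The NC mimic array stood alone again, as it did by the second HMMR probe set, with signals of 114 with the mimic against 348 with the NC mimic, and 175 with the antagomir against 131 with the NC antagomir. The log2 ratios with the mimic were -0.996 and -1.61 by these probe sets, and between the controls -1.28 and -1.40. NUSAP1, a microtubule bundler, had 2360.1 with the mimic against 1994 with the NC mimic, and 2192 with the antagomir against 1493 with the NC antagomir, with 0.55 as the highest log2 ratio of the role with the antagomir. ASPM, a spindle pole protein, had 127 with the mimic against 184 with the NC mimic, and 119 with the antagomir against 136 with the NC antagomir. It was below 0 with the mimic by both probe sets past the filter (-0.53 and -0.92) and between the controls (-0.43 and -0.65). DLGAP5, which stabilises kinetochore fibres, had 93.9 with the mimic against 113 with the NC mimic, and 172 with the antagomir against 124 with the NC antagomir.

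Of the genes of cytokinesis, PRC1 was higher with the mimic, and ANLN and ECT2 were lower on the NC antagomir array than on the NC mimic array. PRC1, which crosslinks midzone microtubules, had signals of 11621 with the mimic against 7651 with the NC mimic, and 7846 with the antagomir against 8649.5 with the NC antagomir, with a log2 ratio of 0.60 with the mimic. ANLN (anillin), a scaffold of the contractile ring, had 972 with the mimic against 1010.2 with the NC mimic, and 548 with the antagomir against 455 with the NC antagomir. It was the only mitotic gene with both EpCAM-negative arrays at least 1.5-fold above both EpCAM-positive arrays, a pattern that 1.79% of all expressed genes had. Its second probe set gave 232 with the mimic against 246 with the NC mimic, and 175 with the antagomir against 131 with the NC antagomir. ECT2, the exchange factor that switches on RhoA for the ring, had 343 with the mimic against 385 with the NC mimic, and 269 with the antagomir against 191 with the NC antagomir, in the same direction at log2 ratios of -1.15 for ANLN and -1.01 for ECT2 between the controls. BIRC5 (survivin), of the chromosomal passenger complex, had 8609 with the mimic against 10012 with the NC mimic, and 8265 with the antagomir against 8441 with the NC antagomir. Its 4 probe sets past the filter lay between -0.29 and 0.03 with the mimic.

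Among chromosome structure genes TOP2A differed by all its probe sets past the filter, and those of MKI67, SMC4 and NCAPG disagreed. TOP2A, the topoisomerase that untangles sister chromatids, had signals of 444 with the mimic against 504 with the NC mimic, and 365 with the antagomir against 203 with the NC antagomir. The NC antagomir array was low by both probe sets past the filter, with log2 ratios of 0.85 and 0.97 with the antagomir and of -1.31 and -1.13 between the controls. MKI67 (Ki-67), which coats mitotic chromosomes, had 158 with the mimic against 149.6 with the NC mimic, and 153 with the antagomir against 282 with the NC antagomir by its brightest probe set. Of its 4 probe sets past the filter, 3 were above the floor on every array and ranged from -0.88 to 0.24 with the antagomir and from 0.47 to 0.91 between the controls. The fourth had a signal of 20.7 with the NC antagomir, under the floor, and went the other way between the controls, so the direction is not settled. With the mimic all 4 were above 0, from 0.08 to 1.13. SMC4 and NCAPG are condensin subunits. SMC4 had 624 with the mimic against 821 with the NC mimic, and 663 with the antagomir against 689.7 with the NC antagomir, and its 3 probe sets past the filter lay between -0.45 and 0.35 with the mimic and were all below 0 between the controls. NCAPG had 154 with the mimic against 152 with the NC mimic, and 150.3 with the antagomir against 157 with the NC antagomir. A second, similarly dim NCAPG probe set had 125 with the mimic against 297 with the NC mimic, and 95.7 with the antagomir against 112 with the NC antagomir, with the NC mimic array as the high one.

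**Figure D3:**
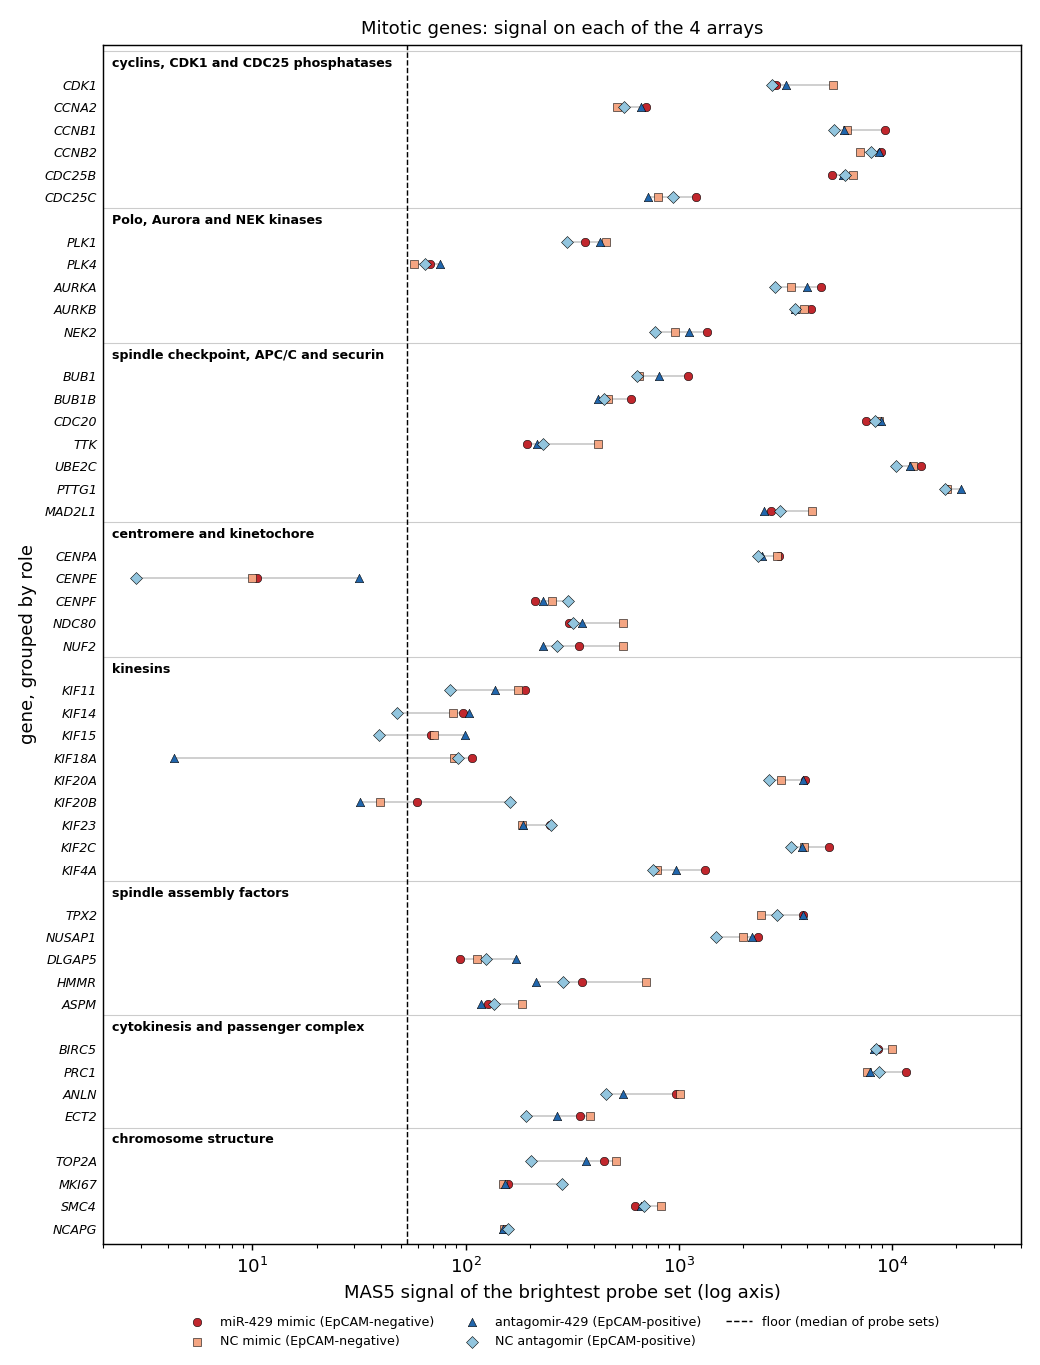
MAS5 signal of the brightest probe set (x axis, log scale) of each of 45 mitotic genes, grouped by role, on the 4 arrays; each symbol is 1 array and the dashed line is the floor of 52.9. The NC mimic array (orange squares) stands alone to the right for CDK1, TTK, NDC80, NUF2 and HMMR, and the NC antagomir array (light blue diamonds) to the left for KIF11, KIF14, KIF15 and TOP2A, under the floor for KIF14 and KIF15.

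Over all 4 arrays a few patterns recurred. The NC mimic array was at least 1.5-fold above each of the other 3 for 5 of 43 mitotic genes (CDK1, TTK, HMMR, NDC80 and NUF2), a pattern that 2.35% of all expressed genes had. The NC antagomir array was below the other 3 by a signal ratio of 1.5 or more for 4 (KIF11, KIF14, KIF15 and TOP2A), against 3.5%. With signals under the floor set to the floor, KIF11, KIF14 and TOP2A were left, against 2.15%, and KIF14 did not show this by its other probe set. The NC antagomir array was above the other 3 by as much for KIF20B and MKI67, against 1.05%. MKI67 showed this by its brightest probe set only, and no other MKI67 probe set past the filter did. The lowest signal of a brighter mitotic gene was on the NC antagomir array in 16 of 31 genes (51.6%), against 17.8% of all brighter genes, and the highest was there in 0 of 31, against 19.4%. The highest was on the miR-429 mimic array in 17 (54.8%), against 28.1%, and on the NC mimic array in 12 (38.7%), against 30.3%. Over all 43 mitotic genes, the lowest signal was on the NC antagomir array in 19 (44.2%), against 21.5% of all expressed genes. The highest of the 43 was on that array in 5 (11.6%), against 19.6%. Of the 4 promoters shown, those of CDK1 and HMMR belong to the first pattern and that of TOP2A to the second. All hold both motifs, but the CHR matches of CDK1 and TOP2A lie further upstream than those of HMMR and CCNB1. NDC80 and NUF2, which shared the first pattern, each held 1 CHR match and 0 CCAAT matches.

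The mimic and antagomir comparisons share no array. Of the 43 genes, 10 had a log2 ratio below 0 for the mimic and above 0 for the antagomir, against 23.1% of all expressed genes, and 8 had the opposite signs, against 22%. Both comparisons were above 0 for 16 of the 43 and below 0 for 9, against 3677 and 3553 of the 13180 expressed genes. None of the 43 was past 1.5-fold in opposite directions, as 215 and 200 of the 13180 expressed genes were in each order.

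Whether the probe sets of a gene gave 1 direction could be read for 22 mitotic genes with 2 or more past the filter. All probe sets of a gene had 1 sign in 17 of the 22 with the mimic, in 13 with the antagomir and in 16 between the controls. In the other 21 genes 1 probe set carried the value, TTK, NDC80, NUF2, KIF11, BUB1, TPX2, PRC1, ECT2 and PLK1 among them.

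**Figure D4:**
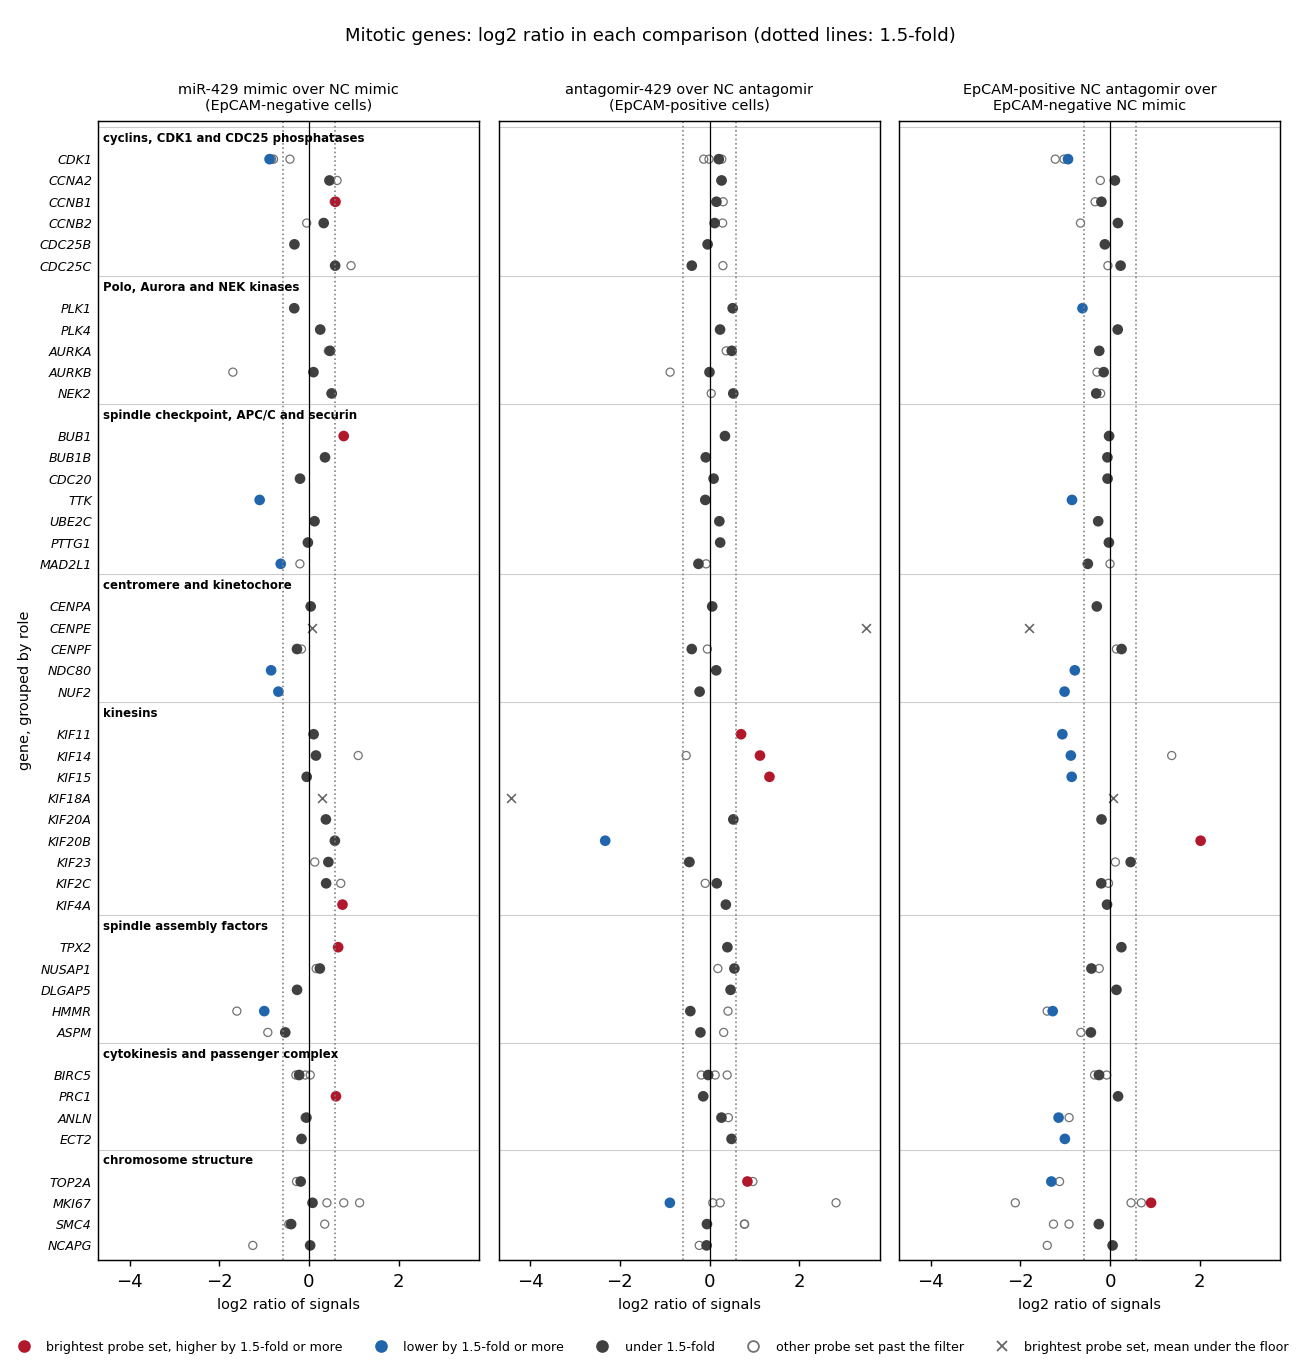
Log2 ratio of signals (x axis) of each of 45 mitotic genes in the 3 comparisons; filled symbols are the brightest probe set, open circles other probe sets past the filter, crosses genes under the floor by mean, and dotted lines mark 1.5-fold. With the mimic 5 genes are past 1.5-fold upward and 6 downward, with the antagomir 4 and 2, and between the controls 2 and 12.

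Other genes of the pathway were taken from 6 lists that hold none of the 45, and their counts past 1.5-fold are to be read beside the shares of all expressed genes given above. Of the regulators of these promoters, FOXM1 and MYBL2 stayed within 1.5-fold: FOXM1, a transcription factor of late cell-cycle genes, had log2 ratios of 0.03 with the mimic and -0.02 with the antagomir, and MYBL2 (B-MYB) of -0.31 and 0.10. RBBP4, a MuvB subunit that also sits in several chromatin complexes, had signals of 6884 with the mimic against 4845 with the NC mimic, and 7029 with the antagomir against 6599 with the NC antagomir, with the NC mimic array as the low one. Of 14 expressed regulators, 2 (14.3%) were higher by 1.5-fold or more with the mimic (RBL2, 0.80, and TFDP2, 0.77), against 14.5% of all expressed genes. Lower by as much was 1 (RBL1, -0.99), 7.14% against 10.9%. With the antagomir 2 (14.3%) were higher (E2F4, 1.05, and RBL2, 0.81), against 9.35%, and 0 lower, against 8.29%. RBL1 and RBL2 encode pocket proteins, and E2F4 and TFDP2 are their DNA-binding partners. Between the controls RBL1 alone was past 1.5-fold (-0.85).

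Condensin, cohesin and separase genes had 5 of 18 lower by 1.5-fold or more between the controls (27.8%, against 12% of all expressed genes), 0 higher (against 10.3%) and a median log2 ratio of -0.16. Of these, PDS5A and PDS5B, regulators of cohesin release, had -0.80 and -0.68, the cohesin subunit STAG2 -0.75 and SMC3 -0.64. STAG2 was also the lowest of them with the mimic (-1.11), in a list with 4 lower (22.2%, against 10.9%) and 2 higher (11.1%, against 14.5%). With the antagomir 4 were higher (22.2%, against 9.35%), led by PDS5A (1.13), and 0 lower (against 8.29%). Among 21 other spindle, midzone and passenger genes, 4 were higher with the mimic (19.0%, against 14.5%) and 0 lower (against 10.9%): WEE1, the kinase that restrains CDK1 (1.11), the microtubule depolymerase KIF2A (1.04), the microtubule polymerase CKAP5 (0.95) and the spindle protein SPAG5 (0.71). With the antagomir 2 were higher (PLK2, 0.94, and CKAP5, 0.77), 9.52% against 9.35%, and 1 lower (CCNF, -0.59), 4.76% against 8.29%. Between the controls 2 were lower (PLK3, -1.34, and CEP55, -0.64), 9.52% against 12%.

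The remaining kinetochore genes differed less, with a median of -0.16 over 29 expressed genes with the mimic, -0.03 with the antagomir and -0.05 between the controls. CENPK, of the inner kinetochore, had signals of 539 with the mimic against 937 with the NC mimic, and 508 with the antagomir against 517 with the NC antagomir, so the NC mimic array was the high one. With the mimic it was the only one lower by 1.5-fold or more (-0.80), 3.45% against 10.9% of all expressed genes. CENPL was the only one higher (0.61), 3.45% against 14.5%. With the antagomir NSL1 was higher (0.67), 3.45% against 9.35%, and CENPI lower (-0.73), 3.45% against 8.29%. Between the controls CENPK (-0.86) and CENPQ (-0.965) were lower, 6.90% against 12%. Of 16 APC/C subunits and cofactors, 1 was higher with the mimic (CDC23, 0.67), 6.25% against 14.5%. Lower were 2 (ANAPC15, -0.77, and ANAPC11, -0.63), 12.5% against 10.9%. With the antagomir 1 was higher (ANAPC4, 1.02), 6.25% against 9.35%, and between the controls 1 was lower (CDC27, -1.17), 6.25% against 12%.

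DNA replication genes, which are transcribed earlier in the cell cycle, gave a contrast to the 43 expressed mitotic genes between the controls. Of 32 expressed, 1 was lower by 1.5-fold or more there (RRM1, -0.78), against 12% of all expressed genes. Higher by as much were 2 (ORC1, 0.80, and RFC4, 0.67), against 10.3%. The median log2 ratio was 0.06, where the mitotic genes had 12 of 43 lower, 2 higher and a median of -0.20. With 1 array a group this difference between lists has no test. It did not extend to every other list of mitotic genes. The other kinetochore genes had 2 of 29 lower by 1.5-fold or more between the controls (median -0.05). The other spindle, midzone and passenger genes had 2 of 21 lower (median -0.05), and the APC/C genes 1 of 16 (median 0.04). Condensin, cohesin and separase genes went the other way, with 5 of 18 lower (median -0.16). With the mimic 2 replication genes were higher (MCM10, 0.80, and RFC4, 0.59), against 14.5%, and 0 lower, against 10.9%. With the antagomir 0 were higher, against 9.35%, and 1 lower (CCNE2, -0.65), against 8.29%. Their medians were 0.06 and 0.03.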

How the data were processed

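Total RNA of 4 samples was measured on 1-colour Affymetrix arrays. The authors deposited log2 signals of the MAS5 algorithm, which the submitters' processing notes name without a version. On the linear scale, dropping 2% of probe sets from either tail left a mean of 500.1 on all 4 arrays: the deposited values had been scaled, and no further scaling was applied.

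Of 54675 probe sets, 62 were controls. The platform annotation gave 1 symbol for 41091 of the rest and several for 1801. The filter kept genes with a mean log2 signal at or above the median of all probe sets other than controls. Differences are log2 ratios of single arrays with no offset, so no p-value or error was computed. The script was tested on simulated data. The mimic and antagomir comparisons share no array, and that of the controls shares an array with each.

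The mitotic genes and the role, pathway and marker lists were chosen with earlier results of these data known. Signals on all 4 arrays were to be given for 12 chosen genes, for each mitotic gene past 1.5-fold in any comparison and for the highest and lowest of each role, and up to 4 genes past 1.5-fold were to be named from each pathway list. Signals of further mitotic genes, further pathway genes, the 4-array patterns and the promoters shown were picked after seeing the values. Python 3.11.15, numpy 2.4.6, pandas 2.3.3 and matplotlib 3.10.9 were used. Alternatives tried were quantile normalization, median centring, an offset of 5.97 signal units before log2, stricter and absent filters, the median or the second brightest probe set and the other NC array as control, plus signals under the floor set to the floor (also for the 4-array patterns), added after the data were seen.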

Additional observations from a re-analysis of the deposited data

How the results depend on the processing

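No paired analysis was possible because each group had 1 array. Of the summary values, the median and both counts of the control comparison kept their direction under median centring, quantile normalization, the offset, the absent filter and the floor, where the genes lower by 1.5-fold or more numbered between 11 and 13. With the stricter filter 0 of 31 were higher and 8 lower, and with the median over probe sets 1 was higher and 13 lower, with KIF14 turning to 0.25 (1.37 by its second probe set, whose NC mimic signal was under the floor). With median centring the median of all genes in the mimic comparison was -0.11 in place of -0.0016, the mitotic median turned to -0.0286 with 2 genes higher and 7 lower, and the share of all 1.5-fold calls that were higher was 42% in place of 57%. Centring shifts all genes of an array alike, so the mitotic median minus that of all genes, 0.08, could not change. Under the settings that could change it, this difference ran from -0.14 (second brightest probe set) to 0.33 (NC antagomir array as control). By the second brightest probe set, which 22 genes had, the mimic median was -0.0682. The choice of control moved most. Against the NC antagomir array the mimic gave a median of 0.33, with 12 genes higher and 2 lower, against 13.7% and 8.68% of all expressed genes. CDK1 (0.0606), HMMR (0.28) and NUF2 (0.33) turned positive. Against the NC mimic array the antagomir gave a median of -0.0475, with 2 higher and 8 lower, against 12.3% and 12.1% of all expressed genes. KIF11 (-0.362), TOP2A (-0.47) and MKI67 (0.0285) changed sign. The cause was not tested. With the antagomir and its own control, the stricter filter left 1 gene higher and 0 lower, the median over probe sets 1 lower, and the second brightest probe set 2 higher and 1 lower. MKI67 turned to 0.15 by the median over probe sets and 0.0725 by the second brightest, and KIF14 to -0.52 by the second. Dim probe sets limit the values of KIF14, KIF15, KIF20B, KIF18A and PLK4.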
